A study of Mus musculus with 16 samples.

Results

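The 10 immediate early genes Fos, Fosb, Jun, Junb, Jund, Egr1, Atf3, Ier2, Nr4a1 and Dusp1 were followed in CD11b+ cells that had entered a mouse tumour recently and in cells that had stayed in it. They were taken as the rows of the count files that carry these symbols, 10 of 24421 genes, and all 10 passed the filter on low counts, as did 9642 genes in all. The tumours were MC38-Ova, a mouse colon adenocarcinoma line grown under the skin of C57BL/6 mice that carry the Kaede transgene. Violet light shone on the tumour turned the Kaede protein of the host cells within it from green to red, so that Kaede-red cells had been in the tumour since labelling and Kaede-green cells had entered afterwards.

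The 4 groups compared, with 4 libraries each, were Kaede-green and Kaede-red cells 24h after photoconversion and Kaede-green and Kaede-red cells 72h after it. All 16 were labelled with the same batch, with control as treatment, and were viable CD11b+ leukocytes (CD45+) that carried Kaede and lacked TER119 and NK1.1, so both colours came from tumours and no group came from blood. According to the methods, tumours were digested enzymatically at 37°C before the sort, and this step was shared by all groups. The points of the experiment were tumours of independent mice. Whether a Kaede-green and a Kaede-red library came from the same tumour is not stated, and the main fit treated all libraries as independent. The question for each gene was whether its level differed with time spent in the tumour, as marked by colour, or between 24h and 72h. By the methods, tumours were labelled on the same day after injection, so those taken at 72h were older than those at 24h. Tumour age and time since labelling cannot be told apart here.

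Immediate early genes are transcribed within minutes of a stimulus from factors already present in the cell, with no need for new protein. Fos and Jun family proteins pair to form the AP-1 transcription factor, Egr1, Atf3 and Nr4a1 encode further transcription factors, Ier2 encodes a nuclear regulator and Dusp1 a phosphatase that switches MAP kinases off again. In monocytes and macrophages they respond to microbial products, cytokines and adhesion, and they are also known to be induced by tissue digestion and sorting. The part of digestion and sorting in the results below was not tested.

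Depth was uneven, with 3216858 to 15423085 counts per library. The ribosomal RNA gene Rn45s took 79.0 to 93.4% of the counts in Kaede-green libraries and 55.8 to 84.9% in Kaede-red libraries, which left 468092 to 912689 and 758192 to 5472477 counts outside it. Levels are given as CPM, counts brought to a common library total by TMM, a method that sets the bulk of genes equal between libraries. Markers of macrophages were present in every library, and the sum of the 9 of them was 301 to 418 CPM in Kaede-green and 454 to 674 CPM in Kaede-red libraries at 24h, and 325 to 379 and 715 to 800 CPM at 72h. They did not all rise together. Fcgr1, the largest, had means of 175 and 169 CPM at 24h and 165 and 170 CPM at 72h. Itgam had means of 76.4 and 74.9 CPM at 24h and 79.8 and 148 CPM at 72h. The other markers had higher means in Kaede-red cells at both times, such as C1qa at 8.39 and 78.7 CPM at 24h. The sum of the 6 fibroblast markers was 40.3 to 52.6 and 19.1 to 35.8 CPM at 24h and 42.9 to 48.7 and 11.3 to 18.2 CPM at 72h. It was made up mostly of the collagens, while Dcn stayed at or below 1.63 CPM in every library with means not lower in Kaede-red cells, and Lum was at 0 in all Kaede-green libraries at 24h. Endothelial marker sums were 10.03 to 16.3 and 17.7 to 22.5 CPM at 24h and 9.75 to 19.2 and 21.9 to 36.7 CPM at 72h, with Emcn at 0 in all Kaede-green and Cldn5 at 0 in all Kaede-red libraries. They were mostly Kdr, with means of 8.75 and 14.8 CPM at 24h and 8.13 and 20.6 CPM at 72h, and Pecam1, which was also higher in Kaede-red cells. Cdh5 went the other way, with means of 1.51 and 0.482 CPM at 24h and 2.27 and 0.911 CPM at 72h. Neutrophil marker sums were 9.40 to 12.3 and 9.59 to 14.6 CPM at 24h and 10.4 to 12.7 and 18.8 to 22.9 CPM at 72h, mostly Csf3r, with Ngp at 0 in every library. The sums for dendritic, T and NK, B and tumour epithelial cell markers stayed at or below 5.71 CPM in every library. The part of these cell mixtures in the differences below was not tested, and in bulk samples fewer cells of a type and less RNA per cell cannot be told apart.

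Fos was the most abundant member per length in these cells. Averaged over the 16 libraries, it was at 95.7 ± 23.9 CPM per kb of exon (SD, n = 16), followed by Dusp1 at 47.8 ± 15.7, Junb at 34.7 ± 11.6, Atf3 at 21.2 ± 6.77 and Jun at 18.8 ± 5.06 CPM per kb. Ier2, Jund, Egr1 and Nr4a1 were at 13.1 ± 3.17, 10.5 ± 2.91, 7.57 ± 2.01 and 7.25 ± 4.10 CPM per kb, and Fosb was lowest at 2.13 ± 0.727 CPM per kb. Each pair of neighbours in this order had overlapping ranges over the libraries. The order of the means was not the same in every group, with Jun at 24.1 and Atf3 at 15.7 CPM per kb in Kaede-red cells at 72h, and Nr4a1 at 12.8 and 8.44 against Egr1 at 7.97 and 6.83 CPM per kb in Kaede-green cells at 24h and 72h. All lengths are merged exons of the GENCODE vM21 annotation on mm10.

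Promoter sequences are shown for Nr4a1 and Jun, the members with the most extreme differences between colours in either direction, and for Fos and Dusp1, the most abundant ones. Each line is the 250 bases before the RefSeq start site on GRCm38.p6, written 5′ to 3′ on the strand of the gene, with motif matches in capitals. For Nr4a1 and Dusp1 this start lies within the longer gene span of GENCODE.
Nr4a1, chr15:101266596-101266845, plus strand: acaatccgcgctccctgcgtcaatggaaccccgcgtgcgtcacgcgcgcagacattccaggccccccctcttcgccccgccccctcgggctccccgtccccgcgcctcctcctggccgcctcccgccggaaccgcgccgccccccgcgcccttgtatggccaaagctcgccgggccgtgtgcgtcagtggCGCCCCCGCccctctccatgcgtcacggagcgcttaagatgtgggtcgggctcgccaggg
Jun, chr4:95052223-95052472, minus strand: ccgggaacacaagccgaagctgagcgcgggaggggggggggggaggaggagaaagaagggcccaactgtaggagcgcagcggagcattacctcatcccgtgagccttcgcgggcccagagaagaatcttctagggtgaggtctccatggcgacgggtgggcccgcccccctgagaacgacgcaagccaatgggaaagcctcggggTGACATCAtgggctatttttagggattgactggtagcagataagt
Fos, chr12:85473640-85473889, plus strand: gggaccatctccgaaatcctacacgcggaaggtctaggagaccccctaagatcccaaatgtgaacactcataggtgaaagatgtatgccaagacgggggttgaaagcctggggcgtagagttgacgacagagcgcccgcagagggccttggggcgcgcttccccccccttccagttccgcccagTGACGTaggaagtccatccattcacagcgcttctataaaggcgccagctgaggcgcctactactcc
Dusp1, chr17:26508473-26508722, minus strand: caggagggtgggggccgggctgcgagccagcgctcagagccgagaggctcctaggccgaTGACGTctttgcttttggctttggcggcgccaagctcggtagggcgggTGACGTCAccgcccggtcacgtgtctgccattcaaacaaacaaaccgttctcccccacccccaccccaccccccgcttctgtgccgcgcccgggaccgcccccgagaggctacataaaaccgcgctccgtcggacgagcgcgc

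The capitals mark matches on either strand to motifs of factors known to act on such genes. They are the cyclic AMP response element TGACGTCA, its core TGACGT, which every full element also holds, the element TGACATCA, the EGR site GCGNGGGCG, the AP-1 site TGANTCA and the CArG box of serum response factor. Of the 10 members, 8 had a sequence in the table, and Egr1 and Ier2 were not included. The sequence of Jund, chr8:70697489-70697738, lies upstream of the GENCODE start of that gene, 70698949, and does not adjoin it. The core occurred in 3 of these 8 promoters, Fos, Atf3 and Dusp1, against 6.47% of 32851 promoters of the same length. The full element occurred in 1, Dusp1, 143 bases before the start, against 1.55% of all promoters. TGACATCA occurred in Jun alone among the members, 45 bases before the start, against 2.93% of all promoters. The EGR site occurred in 2, Fosb and Nr4a1, against 4.7%. The AP-1 site and the CArG box, held by 6.75% and 1.47% of all promoters, were not in these windows of the 8 members. Bases outside the windows, and all of Egr1 and Ier2, were not searched, so the genes may hold such sites elsewhere. A match is a run of letters and does not show that a factor binds there.

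Over both times, 5 of the 10 members differed between Kaede-red and Kaede-green cells and they did not all go one way. Nr4a1, Fos, Junb and Dusp1 were lower and Jun was higher in Kaede-red cells. In all genes tested, 9.96% were called higher and 10.3% lower, 20.2% in either direction, by edgeR's quasi-likelihood test at a Benjamini-Hochberg adjusted p under 0.05. No overlap between the 8 libraries of each colour was seen for 0 members in the higher direction and 1 in the lower, against 1.19% and 1.74% of all genes. The median log2 fold change of the 10 members was -0.29, against 0.06 for all genes tested, and 9 of the 10 lay below the median of all genes. At 24h, 3 members were lower (Nr4a1, Junb and Fos) and 0 higher, against 4.3% and 3.2% of all genes and 7.51% in either direction, with a member median of -0.53 against 0.05 for all genes. The colours did not overlap for 3 members in the lower direction (Nr4a1, Fos and Dusp1) and 0 in the higher, against 5.44% and 7.07%. At 72h, 1 was lower (Nr4a1) and 1 higher (Jun), against 8.76% and 8.07% and 16.8% in either direction, with a member median of -0.10 against 0.03 for all genes. The same pair did not overlap between colours, against 9.52% of all genes in the lower and 13% in the higher direction.

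**Figure D1:**
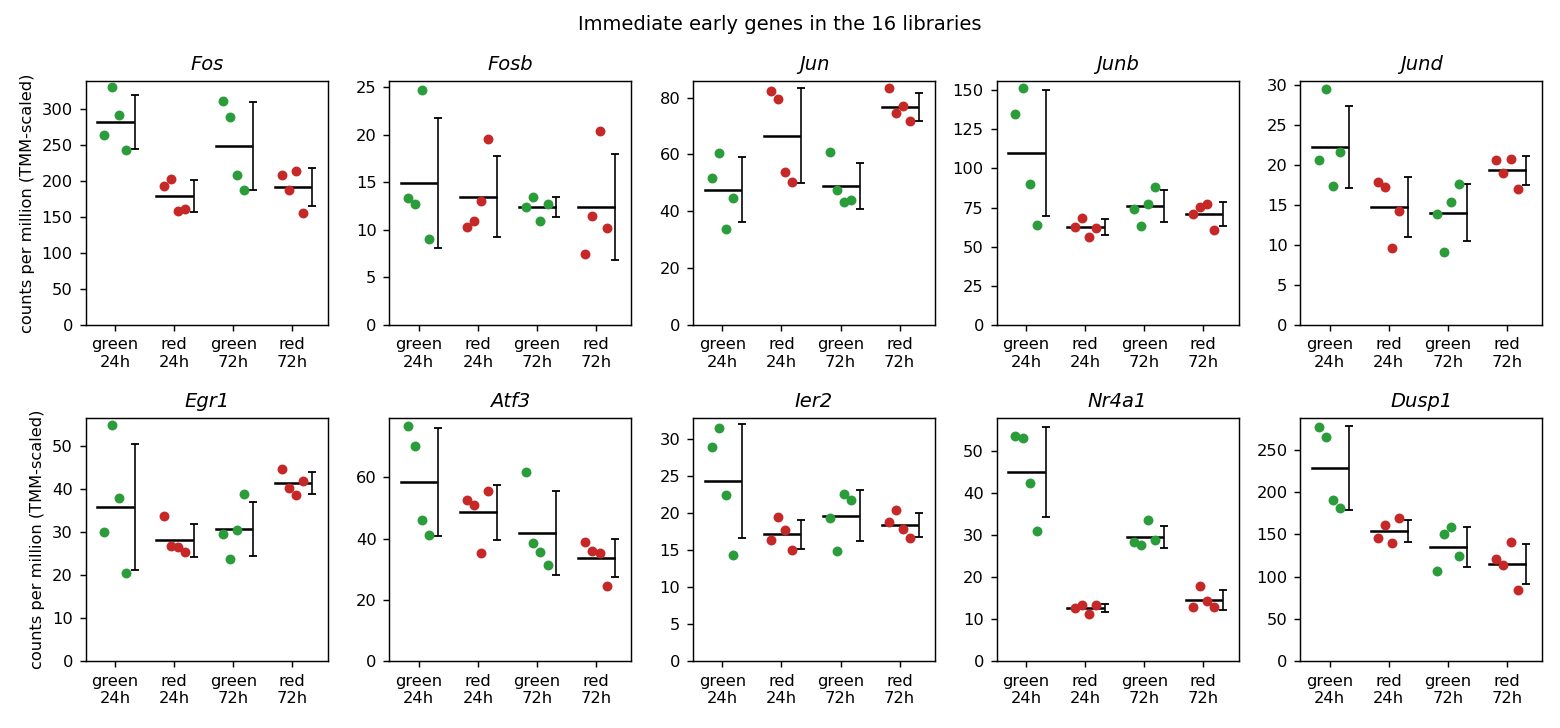
Level of each of the 10 immediate early genes in CPM (vertical axis, from 0, a different scale per gene) in every library of the 4 groups, with the group mean (bar) and SD (whisker, n = 4). The Nr4a1 points of Kaede-red libraries, at 11.2 to 17.9 CPM, lie below all Kaede-green points, at 27.7 to 53.5 CPM.

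Nr4a1, an orphan nuclear receptor that rises with cell activation and is needed for Ly6C-low monocytes, showed the widest gap. Its 4 Kaede-green libraries at 24h held 53.5, 53.1, 42.4 and 31.0 CPM and the Kaede-red ones 12.6, 13.5, 11.2 and 13.3 CPM. At 72h the values were 28.4, 27.7, 33.5 and 28.8 CPM in Kaede-green and 12.9, 17.9, 14.3 and 13.0 CPM in Kaede-red cells. No Kaede-red library reached the lowest Kaede-green one at either time. Nr4a1 was 3.53-fold lower in Kaede-red cells at 24h (log2 fold change -1.82, SE 0.20, edgeR adjusted p = 3.76e-07) and 2.04-fold lower at 72h (-1.03, SE 0.20, edgeR adjusted p = 0.000367). Over both times the log2 fold change was -1.42 (SE 0.14, edgeR adjusted p = 1.08e-08), and by p it ranked 22 of the 9642 genes. It passed the test in all 3 comparisons under every alternative and without any 1 library. The gene lies at chr15:101254269-101274795 on mm10.

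Within Kaede-green cells the Nr4a1 level at 72h was below that at 24h by a log2 fold change of -0.60 (SE 0.20), which did not pass (edgeR adjusted p = 0.403), and within Kaede-red cells the time difference was 0.20 (SE 0.20, edgeR adjusted p = 0.611). The red-green difference moved by 0.79 (SE 0.28) from 24h to 72h, with an edgeR adjusted p of 0.161.

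Jun, the main partner of Fos in AP-1, was the member with a higher level in Kaede-red cells. Its 24h levels were 51.8, 60.5, 33.7 and 44.5 CPM in Kaede-green and 82.4, 79.7, 53.8 and 50.4 CPM in Kaede-red libraries. At 72h they were 60.8, 47.5, 43.3 and 43.8 CPM in Kaede-green and 83.3, 74.5, 77.1 and 71.9 CPM in Kaede-red libraries. The colours overlapped at 24h and did not at 72h. The log2 fold change was 0.57 over both times (SE 0.15, edgeR adjusted p = 0.00445), 0.49 at 24h (SE 0.21, edgeR adjusted p = 0.160) and 0.65 at 72h (SE 0.20, edgeR adjusted p = 0.0239).

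The call for Jun over both times held without any 1 library, and that at 72h was lost without Kaede-green 72h replicates 2, 3 or 4 or Kaede-red 72h replicate 1, at log2 fold changes of 0.58 to 0.62 and edgeR adjusted p of 0.0572 to 0.0903. With the Rn45s share of each library as a covariate, which itself moved with colour, both calls were lost, at 0.18 and 0.25. Jun lies at chr4:95049034-95052222 on mm10 and overlaps Junos, transcribed from the opposite strand. Whether the counting used strand is not given in the sources used here, so reads of this pair may not be told apart.

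Fos, the strongly inducible partner of Jun in AP-1, had lower levels in Kaede-red cells. Its 24h values were 264, 330, 292 and 243 CPM in Kaede-green and 192, 203, 158 and 161 CPM in Kaede-red libraries. At 72h it was at 311, 289, 207 and 187 CPM in Kaede-green and 209, 187, 214 and 155 CPM in Kaede-red libraries. All Kaede-red libraries lay below all Kaede-green ones at 24h, and the colours overlapped at 72h. The log2 fold change passed the test over both times (-0.52, SE 0.14, edgeR adjusted p = 0.00874) and at 24h (-0.66, SE 0.20, edgeR adjusted p = 0.0409), and the difference at 72h was -0.38 (SE 0.20, edgeR adjusted p = 0.208). The call over both times held without any 1 library. The call at 24h held in 6 of the 16 fits that left 1 library out, those without Kaede-green 24h replicate 4, any Kaede-green 72h library or Kaede-red 72h replicate 4. The values ran from -0.74 to -0.56, with the weakest where Kaede-green 24h replicate 2 was omitted (edgeR adjusted p = 0.124). Fos lies at chr12:85473890-85477273 on mm10.

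The level of a member relative to another can be read from counts within a library, with no scaling between libraries, though such a ratio gives no direction for either gene. These ratios were chosen after the values were seen and are given as a description. For every 100 Fos counts there were 11.5 to 19.6 Jun counts in Kaede-green and 31.3 to 42.9 in Kaede-red libraries at 24h, and 16.5 to 23.5 and 36.1 to 46.4 at 72h. For every 100 Jun counts there were 69.7 to 126 Nr4a1 counts in Kaede-green and 15.3 to 26.5 in Kaede-red libraries at 24h, and 46.7 to 77.5 and 15.5 to 24.0 at 72h. The colours did not overlap in either ratio at either time. Junb to Fos, in contrast, overlapped at both times, with 26.2 to 51.1 and 32.7 to 38.6 Junb counts per 100 Fos counts at 24h and 21.9 to 47.2 and 34.1 to 40.3 at 72h.

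**Figure D2:**
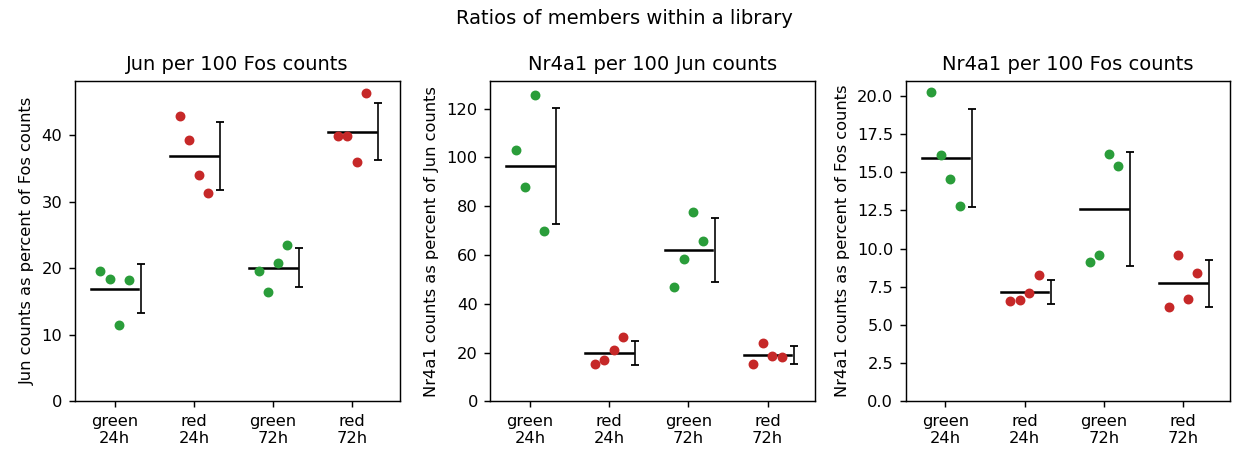
Counts of one member as a percent of the counts of another in the same library (vertical axes, from 0), by group, with mean (bar) and SD (whisker, n = 4). Jun to Fos is at 11.5 to 23.5% in the Kaede-green and 31.3 to 46.4% in the Kaede-red libraries, and Nr4a1 to Jun at 46.7 to 126% and 15.3 to 26.5%.

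Junb, a Jun family member that forms less active AP-1 dimers than Jun in many settings, was lower among Kaede-red libraries over both times and at 24h and was not called at 72h. The 24h values were 135, 151, 90.1 and 63.7 CPM in Kaede-green and 62.8, 68.5, 56.3 and 62.1 CPM in Kaede-red libraries. The 72h values were 74.3, 63.4, 77.3 and 88.2 CPM in Kaede-green and 71.1, 75.3, 77.1 and 60.4 CPM in Kaede-red libraries. Kaede-green 24h replicates 1 and 2 stood well above the other 14 libraries, while replicate 4 of that group lay within the Kaede-red range. The log2 fold change was -0.81 at 24h (SE 0.21, edgeR adjusted p = 0.0139), -0.10 at 72h (SE 0.21, edgeR adjusted p = 0.813) and -0.45 over both times (SE 0.15, edgeR adjusted p = 0.0279). The value at 72h turned to 0.08 when libraries were scaled by their counts outside Rn45s, Lars2 and Mir6236. Without Kaede-green 24h replicate 1 or 2 the call at 24h was lost, at -0.71 and -0.60 with edgeR adjusted p of 0.0584 and 0.0924. The call over both times was lost in 7 of the 16 such fits, without Kaede-green 24h replicates 1 or 2, Kaede-red 24h replicates 1 or 3, Kaede-green 72h replicate 4 or Kaede-red 72h replicates 1 or 4. Junb overlaps Prdx2 on the opposite strand.

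Jund, the Jun family member that is expressed most constantly, was not called in any comparison. Its levels were 17.4 to 29.4 CPM in Kaede-green and 9.59 to 17.8 CPM in Kaede-red libraries at 24h, and 9.14 to 17.6 and 16.9 to 20.7 CPM at 72h. The colours overlapped at both times, with Kaede-red means below at 24h and above at 72h. The red-green difference was -0.58 at 24h (SE 0.23, edgeR adjusted p = 0.132) and 0.45 at 72h (SE 0.23, edgeR adjusted p = 0.183), and its change with time was 1.03 (SE 0.33, edgeR adjusted p = 0.106).

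Fosb, a Fos paralogue, was low and variable. It ranged from 8.98 to 24.8 CPM in Kaede-green and 10.2 to 19.6 CPM in Kaede-red libraries at 24h, and from 10.9 to 13.4 and 7.50 to 20.4 CPM at 72h. The log2 fold change of Fosb was -0.11 over both times (SE 0.21, edgeR adjusted p = 0.761), and turned to 0.10 under scaling outside Rn45s, Lars2 and Mir6236. Its residual SD on the log2 scale, 0.48, was the highest of the 10 members, and that of Nr4a1, 0.23, the lowest.

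Egr1, a zinc finger factor with roles in monocyte differentiation, was not called between colours, with a log2 fold change over both times of 0.04 (SE 0.16, edgeR adjusted p = 0.898). Its Kaede-red libraries were at 33.7, 26.8, 26.6 and 25.3 CPM at 24h and at 44.5, 40.3, 38.5 and 41.7 CPM at 72h, while Kaede-green ones were at 20.4 to 54.8 and 23.8 to 38.9 CPM. All Kaede-red values at 72h lay above those at 24h, as for 11.8% of all genes. That difference was 0.55 (SE 0.21) with an edgeR adjusted p of 0.105, and it passed the test when only the Kaede-red groups were fitted (0.56, edgeR adjusted p = 0.0200). The red-green difference was -0.35 at 24h (SE 0.22) and 0.43 at 72h (SE 0.22), with edgeR adjusted p of 0.391 and 0.187.

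Atf3, a stress-inducible repressor of inflammatory genes, was at 41.2 to 76.9 CPM in Kaede-green and 35.3 to 55.4 CPM in Kaede-red libraries at 24h, and at 31.4 to 61.9 and 24.6 to 39.0 CPM at 72h. All 4 groups overlapped with their neighbours. Its log2 fold change between colours was -0.28 over both times (SE 0.16, edgeR adjusted p = 0.233), and that of 72h against 24h was -0.48 for Kaede-green and -0.53 for Kaede-red (SE 0.24 and 0.22, edgeR adjusted p = 0.571 and 0.140). Ier2 was at 14.3 to 31.5 and 15.0 to 19.4 CPM at 24h and at 14.9 to 22.6 and 16.7 to 20.5 CPM at 72h in Kaede-green and Kaede-red libraries. Its difference over both times was -0.30 (SE 0.15, edgeR adjusted p = 0.178). It passed at -0.40 (edgeR adjusted p = 0.0402) once Kaede-green 24h replicate 4, the lowest library, was left out.

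Dusp1, which dephosphorylates p38 and JNK and so limits inflammatory output, was lower in Kaede-red cells over both times only. Its values at 24h were 277, 265, 191 and 181 CPM in Kaede-green and 146, 161, 140 and 169 CPM in Kaede-red libraries. At 72h they were 107, 150, 159 and 124 CPM in Kaede-green and 121, 114, 142 and 84.4 CPM in Kaede-red libraries. The Kaede-green libraries at 24h stood above all other libraries. The log2 fold change over both times was -0.40 (SE 0.14, edgeR adjusted p = 0.0449), a call close to the threshold. It held in 5 of 16 fits without 1 library, those that omitted Kaede-green 24h replicates 3 or 4, Kaede-red 24h replicate 4, Kaede-green 72h replicate 1 or Kaede-red 72h replicate 3, and the values over the 16 ran from -0.46 to -0.34. The red-green difference was -0.57 at 24h (SE 0.20, edgeR adjusted p = 0.0871) and -0.23 at 72h (SE 0.20, edgeR adjusted p = 0.482). The annotated gene, chr17:26505590-26562128 on mm10, overlaps 4 other genes, 2 of them on the same strand, so some reads may be shared.

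**Figure D3:**
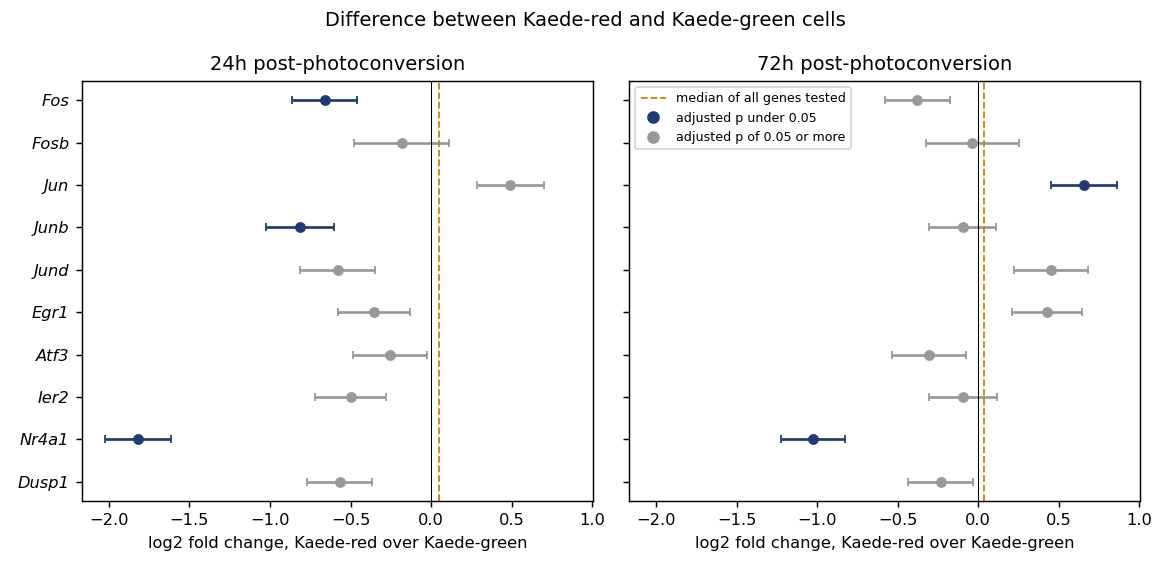
Log2 fold change of Kaede-red over Kaede-green cells (horizontal axis) for each member at 24h and 72h, with its standard error (whiskers), dark where the adjusted p is under 0.05, and the median of all genes tested (dashed). At 24h 9 of the 10 members lie below that median, with Jun alone above it, and at 72h 7 lie below and Jun, Jund and Egr1 above.

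The scale chosen moved the size of these differences. When libraries were scaled by their counts outside Rn45s, Lars2 and Mir6236, which are dominated by ribosomal RNA, the median log2 fold change of all genes over both times was 0.26 instead of 0.06. A change of scale moves all genes of a comparison by nearly the same amount. Values relative to the median of all genes therefore stay nearly the same on any scale, and their agreement is no check. Relative to the median of all genes, the members' median was -0.35 on both scales, Nr4a1 was at -1.48 on both, and Fos was at -0.58 and -0.59, Junb at -0.51 and -0.50, Dusp1 at -0.46 on both and Jun at 0.52 and 0.50. Counted from 0, however, 1 member (Jun) was called higher and 1 (Nr4a1) lower on that scale over both times, against 1 and 4 under TMM. Of all genes, 19.9% were then called higher and 6.44% lower. At 24h, 1 was higher (Jun) and 1 lower (Nr4a1), against 0 and 3 under TMM, with 7.26% and 2.51% of all genes called. At 72h, 3 were higher (Jun, Jund and Egr1) and 1 lower (Nr4a1), against 1 and 1 under TMM, with 13.7% and 6.55% of all genes called on that scale. The 10 members together made up 0.300 to 0.419% of the counts outside Rn45s in Kaede-green and 0.380 to 0.524% in Kaede-red libraries, while their TMM-scaled sums ran from 594 to 1058 and from 495 to 657 CPM.

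No member was called between 72h and 24h in Kaede-green cells, nor was any of the 9642 genes by edgeR's quasi-likelihood test. With an unadjusted p under 0.05 there were 835 genes in all, and 5 of the members (Junb, Jund, Atf3, Nr4a1 and Dusp1), each with a value below 0. DESeq2 called 12 genes, among them Dusp1 at -0.78 (DESeq2 adjusted p = 0.0390). The edgeR value of Dusp1 was -0.76 (SE 0.20, edgeR adjusted p = 0.323), and its Kaede-green libraries at 72h all lay below those at 24h, as for 1.09% of all genes, while 0 members lay wholly above, against 1.9%. The members' median was -0.40, against 0.03 for all genes.

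In Kaede-red cells 0 members were called between 72h and 24h by edgeR's quasi-likelihood test, although 8.67% of all genes were, 4.91% higher and 3.76% lower. With an unadjusted p under 0.05 there were 2213 of the 9642 genes and 3 of the members, Egr1 with a value above 0 and Atf3 and Dusp1 with values below 0, and DESeq2 called 0. The members' median was 0.15, against -0.01 for all genes. When each library had to hold at least 10 counts of a gene, Atf3 and Dusp1 passed, at -0.60 and -0.49.

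The change of the red-green difference from 24h to 72h was likewise called for 0 members, by edgeR and by DESeq2, against 0.767% of all genes by edgeR (0.436% above and 0.332% below 0), with 4 members (Nr4a1, Jund, Junb and Egr1) and 1471 of the 9642 genes at an unadjusted p under 0.05. It was above 0 in 9 of the 10, with a median of 0.37 against -0.07 for all genes. These comparisons share libraries with each other, so their values are not independent.

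The spread within groups was not the same for all. In the Kaede-green group at 24h, replicate 4 was lowest of its group for 8 of the 10 members, by a mean of -0.43 on the log2 scale, and replicate 2 was highest for 6, by a mean of 0.34. Over all genes these 2 libraries deviated by a mean of -0.19 and 0.09, and the Rn45s share was 93.4% in replicate 4 and 86.5% in replicate 2, the highest and the lowest of that group. The part of this share was not tested. In Kaede-red cells, 24h replicate 3 was lowest for 6 members and 72h replicate 4 for 7, with mean deviations of -0.19 and -0.21. Their Rn45s shares were 83.1%, in a group of 66.2 to 84.9%, and 55.8%, the lowest of its group.

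**Figure D4:**
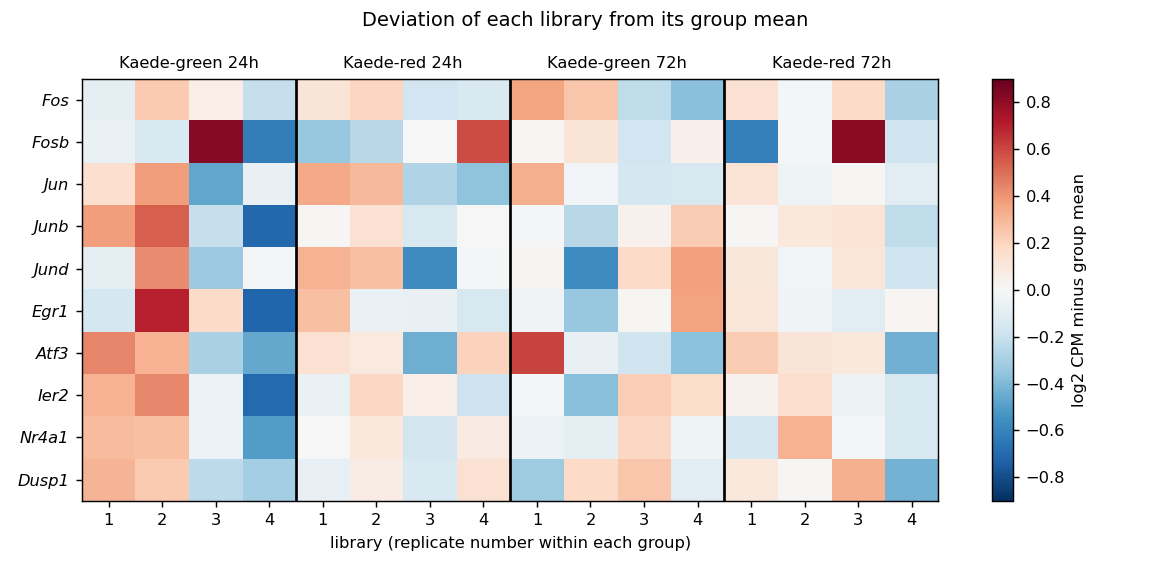
Deviation of each library (columns, 4 replicates per group) from its group mean for each member (rows), in log2 CPM, red above and blue below. Kaede-green 24h replicate 4 is blue in all 10 rows and replicate 2 of that group is red in 9.

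The genes nearest to the members in pattern were found by the root mean square difference of centred log2 CPM over the 16 libraries, among 1379 genes with a mean log2 CPM of at least 4. Closest to the mean of the members were Fgl2, Cd47, Dstn, Gabarap and Ppp2ca, at 0.144 to 0.157, and closest to Fos were Gm12250, Rps4x, Tes, Tpm4 and Rpl23, at 0.163 to 0.200. Among the members themselves, Junb at 0.158 and Ier2 at 0.169 stayed closest to the members' mean, and Nr4a1 at 0.58 and Jun at 0.50 strayed most. That mean joins genes that went in opposite directions between colours. Fgl2, Cd47, Dstn, Gabarap and Ppp2ca were not called in any comparison, and Fgl2 lay nearer to it than any member. Nearness to this mean therefore does not mark a shared response.

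Among the other primary response genes, those induced in the same early wave, 33 of 35 were tested. Over both times 2 were higher and 10 lower in Kaede-red cells, against 9.96% and 10.3% of all genes, with a median of -0.24. The called genes of at least 4 log2 CPM with the largest differences were Ptgs2, the inducible cyclooxygenase, at -1.15 (SE 0.14), the antiproliferative genes Btg2 and Btg1 at -0.84 and -0.72 (SE 0.13 for both) and the transcription factor Nfil3 at -0.75 (SE 0.15), with edgeR adjusted p from 2.74e-07 to 0.000435. Ptgs2 ran from 48.2 to 72.4 CPM in Kaede-green and 27.9 to 37.7 CPM in Kaede-red libraries at 24h, and from 33.2 to 55.2 and 13.2 to 19.4 CPM at 72h, so the colours did not overlap at either time. The nearest paralogue of Nr4a1, Nr4a2, was lower at -1.21 (SE 0.31, edgeR adjusted p = 0.00529), at only 0.547 to 8.17 CPM. The 2 higher genes were Zfp36l1, which encodes an mRNA decay factor, at 1.31 (SE 0.19, edgeR adjusted p = 4.1e-06) and Myc at 0.75 (SE 0.27, edgeR adjusted p = 0.0472), the latter kept in 5 of 16 fits without 1 library, those that omitted Kaede-green 24h replicates 2 or 3, Kaede-green 72h replicate 4 or Kaede-red 72h replicates 1 or 3. These last 3 were named after their values were seen. At 24h 1 of this list was higher and 9 lower, against 3.2% and 4.3% of all genes, and at 72h 1 and 5, against 8.07% and 8.76%. With the Rn45s share as a covariate, all genes named from this and the further lists over both times lost their calls except Nfil3, and the cause was not tested.

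Of the other AP-1 and ATF subunits, 0 of 12 were higher and 2 lower over both times, Fosl2 at -0.69 (SE 0.15, edgeR adjusted p = 0.000842) and Fosl1 at -1.07 (SE 0.32, edgeR adjusted p = 0.0171), with a list median of 0.13. The shares of all genes were 9.96% higher and 10.3% lower. The call of Fosl1, a low gene, was lost without Kaede-green 72h replicate 3, at -0.86 (edgeR adjusted p = 0.0809), and under scaling outside Rn45s, Lars2 and Mir6236, at -0.87. Fosl2 was at 27.7 to 45.0 CPM in Kaede-green and 14.1 to 21.8 CPM in Kaede-red libraries at 24h, and at 28.5 to 52.5 and 27.1 to 33.2 CPM at 72h. It was the 1 gene of this list called with time in Kaede-red cells, higher at 72h by 0.76 (SE 0.21, edgeR adjusted p = 0.0199). Of the 16 fits without 1 library, 3 lost that call, those without Kaede-red 24h replicates 2 or 3 or Kaede-red 72h replicate 1.

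The other MAP kinase phosphatases, of which 8 of 10 were tested, held 1 gene that was higher, Dusp7 at 0.90 (SE 0.31, edgeR adjusted p = 0.0345), and 1 that was lower, Dusp5 at -0.93 (SE 0.19, edgeR adjusted p = 0.000501), with a median of -0.28. For 8 genes this lies close to the shares of all genes, 9.96% higher and 10.3% lower. Dusp7 lost its call without Kaede-green 24h replicate 4, Kaede-red 24h replicates 1 or 3, Kaede-green 72h replicates 1 or 2, or Kaede-red 72h replicates 2 or 3, at values of 0.78 to 0.90. Its difference was -0.04 at 24h (SE 0.41, edgeR adjusted p = 0.974) and 1.84 at 72h (SE 0.44, edgeR adjusted p = 0.00339), and the change between them, 1.88 (SE 0.62), did not pass (edgeR adjusted p = 0.123). Of 24 tested genes of the MAP kinase cascades and the SRF and CREB factors upstream of the members, 3 were higher and 2 lower, with a median of 0.05. These counts lie close to the 9.96% and 10.3% of all genes. Crem, which encodes both activators and repressors at cyclic AMP elements, was lower at -1.21 (SE 0.17, edgeR adjusted p = 1.85e-06), from 12.7 to 16.7 and 5.35 to 8.23 CPM at 24h and from 9.97 to 13.8 and 3.59 to 5.28 CPM at 72h in Kaede-green and Kaede-red libraries, with no overlap. The kinase gene Map3k8 was lower at -0.66 (SE 0.18, edgeR adjusted p = 0.0100), a call lost under scaling outside Rn45s, Lars2 and Mir6236 at -0.45. Mapk3, which encodes ERK1, was higher at 0.68 (SE 0.21, edgeR adjusted p = 0.0208), and so were the S6 kinase genes Rps6ka1 at 1.03 (SE 0.24) and Rps6ka3 at 0.52 (SE 0.19), with edgeR adjusted p of 0.0022 and 0.0464. Mapk3 lost its call without Kaede-green 24h or 72h replicate 3 or Kaede-red 72h replicate 2, at values of 0.57 to 0.63. Rps6ka3 held in 5 of 16 such fits, those that omitted Kaede-green 24h replicate 3, Kaede-red 24h replicates 3 or 4, Kaede-green 72h replicate 4 or Kaede-red 72h replicate 3. Apart from Fosl2, the genes of these 3 lists were named after their values were seen.

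**Figure D5:**
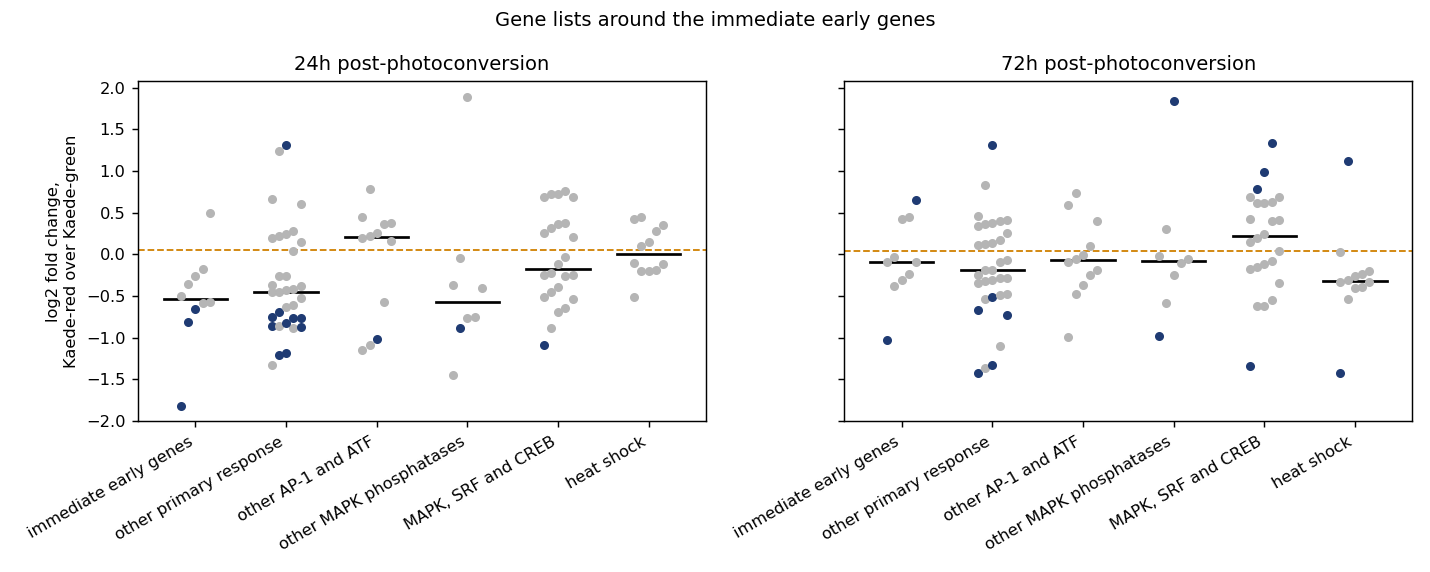
Log2 fold change of Kaede-red over Kaede-green cells (vertical axis) at 24h and 72h for each tested gene of the 10 members and of 5 further lists (horizontal axis), dark where the adjusted p is under 0.05, with the list median (bar) and the median of all genes tested (dashed). The medians of the members and of the other primary response genes are -0.53 and -0.45 at 24h and -0.10 and -0.19 at 72h.

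Heat shock and co-chaperone genes are also known to respond to tissue handling, whose part in these values was not tested. Of 12 tested, 0 were higher and 1, Hspe1, was lower over both times (-0.81, SE 0.18, edgeR adjusted p = 0.00136), with a median of -0.09, against 0.06 for all genes. Of all genes, 9.96% were higher and 10.3% lower over both times, and for 12 genes the counts lie close to these shares. At 24h edgeR's quasi-likelihood test called 0 of the 12, against 7.51% of all genes. With an unadjusted p under 0.05 there was 1 of the 12 (Hspd1) and 2013 of the 9642 genes. At 72h the same test called 1 higher, Bag3 at 1.12 (SE 0.35, edgeR adjusted p = 0.0262), and 1 lower, Hspe1 at -1.42 (SE 0.25, edgeR adjusted p = 0.000152). The shares of all genes at 72h were 8.07% and 8.76%, close to these counts for 12 genes. Their summed level overlapped between all groups, at 645 to 767 and 641 to 819 CPM at 24h and 594 to 842 and 605 to 681 CPM at 72h in Kaede-green and Kaede-red libraries. This sum was mostly Hspa8 and Hsp90ab1, with group means of 344 to 376 and 136 to 183 CPM. Group means were only 12.5 to 29.4 CPM for Hspa1a and 12.6 to 28.2 CPM for Hspa1b, so the sum says little about them. From 24h to 72h in Kaede-red cells, 0 of the 12 were higher and 3 lower, against 4.91% and 3.76% of all genes. Hspa1a, Hspa1b and Hspe1 were lower, at -1.06, -1.08 and -1.13 (SE 0.34, 0.30 and 0.25, edgeR adjusted p = 0.0469, 0.0217 and 0.00436). Hspa1a and Hspa1b are near-identical copies whose reads the counting could split. Bag3, Hspd1, Hspe1, Hspa8 and Hsp90ab1 were named after their values were seen. The call of Hspe1 between times held without any 1 library. Under the alternatives, the calls of Hspe1 and Hspa1a between times did not hold throughout. Hspa1b lost its call without Kaede-red 24h replicates 1 or 2 or Kaede-red 72h replicates 1, 2 or 4, and Hspa1a without these, Kaede-red 24h replicates 3 or 4 or Kaede-green 24h replicate 2. The weakest values were -0.85 and -0.78.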

How the data were processed

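RNA from sorted CD11b+ tumour cells was sequenced as total RNA with a stranded pico-input kit from 5 ng, in 16 libraries. Per the labels and the paper's methods, the authors trimmed reads with Trim Galore, checked them with FastQC, aligned them with HISAT2 to mm10 and counted them with featureCounts, and the deposited values are raw counts per gene symbol with no normalization. The strand setting and annotation of the counting are not given in the sources used here. The 16 single files were identical to the combined table.

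Counts were fitted with edgeR 4.0.16 in R 4.3.3, over all 16 libraries with filterByExpr, TMM scaling and 4 group means, and 6 contrasts were taken by the quasi-likelihood test. The call threshold was 0.05 on the Benjamini-Hochberg adjusted p over the 9642 genes that passed. CPM used TMM library sizes, and log2 CPM a prior count of 2. The fit was also run on simulated data. These used the fitted spread, the same scaling factors and independent libraries, so they could not test scaling or pairing. All 10 members were named. From each further gene list, up to 4 called genes with the largest log2 fold changes at a mean log2 CPM of at least 4 were named, and other genes are marked as chosen after their values were seen. The members and lists were chosen with earlier results of these data known. Positions came from GENCODE vM21 on mm10 and promoters from RefSeq on GRCm38.p6.

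Alternatives were DESeq2 1.42.0, its size factors (RLE), scaling by counts outside Rn45s, Lars2 and Mir6236, omitting the filter, requiring 10 counts in each library, fits of the compared groups alone, a replicate block, the Rn45s share as a covariate and leaving out each library. Precision rests on 62 to 712 counts per library for Nr4a1 and 474 to 7438 for Fos. The common dispersion was 0.0702.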

Additional observations from a re-analysis of the deposited data

Results flagged for a closer look

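The red-green difference of 2 of the 33 tested other primary response genes changed with time by a test of the change itself, both upward. Of all genes, 0.436% changed upward and 0.332% downward by this test. For Zfp36, which encodes an mRNA decay factor that limits cytokine transcripts, the log2 fold change of Kaede-red over Kaede-green cells was -0.70 at 24h and 0.47 at 72h, a change of 1.16 (SE 0.27, edgeR adjusted p = 0.0445). Its levels were 107 to 150 CPM in Kaede-green and 66.4 to 90.2 CPM in Kaede-red libraries at 24h, and 63.7 to 106 and 108 to 131 CPM at 72h. For Trib1, which encodes a pseudokinase that controls C/EBP factors, it was -0.86 at 24h and 0.38 at 72h, a change of 1.24 (SE 0.31, edgeR adjusted p = 0.0492). Its levels were 29.1 to 53.9 and 14.3 to 25.1 CPM at 24h and 19.8 to 27.0 and 25.2 to 37.0 CPM at 72h. Both calls were close to the threshold and held in 4 and 3 of the 16 fits without 1 library, with changes of 1.04 to 1.29 and 0.98 to 1.39. These were the fits that omitted Kaede-green 24h replicate 4, Kaede-red 24h replicate 1 or Kaede-green 72h replicate 4 and, for Zfp36 only, Kaede-green 72h replicate 3. The change of Trib1 also missed the threshold with RLE size factors (1.21, edgeR adjusted p = 0.0561) and under scaling outside Rn45s, Lars2 and Mir6236 (1.19, edgeR adjusted p = 0.0552). Of 40 sets of 4 libraries, 1 for each member and group, 0 held a library that stood apart by Dixon's limit of 0.829.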

How the results depend on the processing

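Nr4a1 kept its direction and its call in all 3 comparisons of colours under every alternative and without any 1 library, over log2 fold changes of -1.97 to -0.85. The number of members called between colours over both times was 5 in the report, 5 by DESeq2 and with RLE size factors, 4 with at least 10 counts in every library, 2 under scaling outside Rn45s, Lars2 and Mir6236, 2 with no filter and 1 with the Rn45s share as a covariate. At 72h it was 2 in the report, 4 under that scaling and 1 with the covariate. Between 72h and 24h it was 0 in both colours in the report, 1 in Kaede-green cells by DESeq2, and in Kaede-red cells 2 with at least 10 counts in every library and 1 when only these groups were fitted. Leaving out 1 library gave 3 to 6 over both times, 1 to 5 at 24h and 1 to 2 at 72h, and 0 in each of the other comparisons. Fos, Junb and Dusp1 lost their calls over both times under that scaling (-0.33, -0.24 and -0.19), with no filter (-0.40, -0.34 and -0.28) and with the covariate (-0.48, -0.81 and -0.27), and the cause was not tested. At 24h, Jun passed under that scaling (0.71) and with at least 10 counts in every library (0.63), and Dusp1 passed by DESeq2 (-0.58). Fos and Junb lost their calls at 24h under that scaling, which left 1 member called lower, against 3 in the report. With no filter, 2 were called lower at 24h.

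Directions turned only for values that were not called, apart from Rps6ka3, which turned to -0.014 with the covariate. Under scaling outside Rn45s, Lars2 and Mir6236, Fosb turned to 0.066 at 24h, 0.14 at 72h and 0.10 over both times, Jund to 0.14 over both times, and Junb and Ier2 at 72h to 0.082 and 0.088. With no filter, Fosb turned to 0.0015 over both times and 0.10 at 72h, Jund to 0.055 over both times, Junb and Ier2 to 0.048 and 0.055 at 72h, and the change of Atf3 with time to 0.00043. With at least 10 counts in every library, Jund turned to 0.015 over both times. With the covariate, Fosb turned to 0.35 at 24h, 0.56 at 72h and 0.45 over both times, Egr1 to -0.53 over both times and -0.17 at 72h, Jund to -0.041 at 72h, Jun between times in Kaede-green cells to -0.072, and Fosb and Ier2 in Kaede-red cells to 0.10 and -0.033. Leaving out 1 library turned the change with time of Atf3 (-0.21 to 0.19) and Fosb (-0.26 to 0.40), Fosb between colours at 24h (-0.43 to 0.21), at 72h (-0.33 to 0.15) and over both times (-0.25 to 0.078) and between times in Kaede-green (-0.51 to 0.074) and Kaede-red cells (-0.47 to 0.087), Egr1 over both times (-0.073 to 0.19) and between times in Kaede-green cells (-0.43 to 0.056), Jun between times in Kaede-green cells (-0.12 to 0.19), Junb at 72h (-0.20 to 0.0012) and Jund over both times (-0.16 to 0.036).

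No source says that replicate numbers pair libraries. Deviations of same-numbered Kaede-green and Kaede-red libraries correlated at 0.05 to 0.15 at 24h and -0.02 to 0.03 at 72h, and in 2 of 8 such pairs the own number matched best. With the replicate number as a block, 5, 3 and 2 members were called between colours (both times together, 24h, 72h) and 0 in the other comparisons, as without the block, but Myc and Rps6ka3 were not called. Depth limits the low members most, since Fosb rested on as few as 22 counts in a library, Jund on 30 and Ier2 on 35.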
